A study of Mus musculus with 12 samples.

Results

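Chromatin modifiers and remodelers were examined in ribosome-bound mRNA of CA1 pyramidal cells of 2 genotypes, wild type and Fmr1-/y. The genes were chosen by a rule on their names, set with earlier results of these data known. The rows of the count file were taken whose symbol starts with Kmt2 (or the older Mll), Kdm, Hdac, Setd, Smarc or Dnmt, is an Arid gene numbered 1 to 5, a numbered Chd or Brd gene or 1 of the Tet genes 1, 2 and 3, or is Ep300 or Crebbp. This gave 95 rows, of which 94 had at least 15 reads summed over the libraries, among 17823 genes with that many reads and 24079 rows in all. The row left out was Dnmt3aos, with 2 reads, and the member nearest above the limit was Arid3c, with 36. The 94 members were 5 Kmt2, 11 Setd, 18 Kdm, 11 Hdac, 7 Brd, 9 Chd, 14 Smarc, 10 Arid, 3 Tet and 4 Dnmt genes together with Ep300 and Crebbp. A name does not fix a substrate. Hdac6, a cytoplasmic tubulin deacetylase, and Setd3, which methylates actin, are among them, and so is the pseudogene Smarca5-ps, whose few reads are uncertain because it is a copy of Smarca5. Setd8 is listed under its older symbol and is now Kmt5a.

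The study asked which mRNAs are differently associated with ribosomes when the fragile X protein FMRP is missing. Its mice carried Wfs1-CreERT2, in which the Wfs1 promoter drives a tamoxifen-inducible Cre recombinase in CA1 pyramidal cells, and the RiboTag allele, in which Cre switches the ribosomal protein Rpl22 to a form with an HA tag. There were 6 wild type libraries and 6 Fmr1-/y libraries, the latter from males whose only Fmr1 copy is inactivated. Tamoxifen at 100 mg per kg was given on 3 days to both genotypes, and the hippocampus was taken 1 week later at 2 to 6 months of age. Each library pooled 4 to 6 mice, so that the spread between libraries is a spread between pools, and HA-Rpl22 was immunoprecipitated from the whole hippocampus.

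Chromatin modifiers write, erase or read chemical marks on histones and DNA. Many, though not all, of the Kmt2 and Setd proteins add methyl groups to lysines, and Kdm enzymes remove them. Crebbp and Ep300 acetylate histones, the Hdac enzymes deacetylate, and Brd proteins bind acetylated lysines. Remodelers of the Chd and Smarc families move or evict nucleosomes with the energy of ATP, and the Arid1 and Arid2 proteins are subunits that define forms of the SWI/SNF complex, called BAF and PBAF. Dnmt enzymes methylate cytosine in DNA and Tet enzymes oxidize the methyl group. Mutations in many of these genes cause intellectual disability or autism in people, and several of the enzymes are known to act on memory in the mouse hippocampus.

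The deleted gene was checked first. Fmr1 had 1971 to 2608 reads in the wild type libraries and 0 in Fmr1-/y except for 1 single read in 1 of the 6, so the labels and the data match. The libraries held 39400980 to 65565479 reads assigned to genes, of which the members took 0.752% to 0.879%. All 6 markers of CA1 pyramidal cells were detected, at a summed level of 7343 to 9029 CPM (counts scaled to the size of the library) in wild type against 7095 to 8411 CPM in Fmr1-/y. The log2 fold changes of all 6 were below 0, and Wfs1, whose promoter drives the Cre, was lower at an unadjusted p under 0.05, with 1272 CPM in wild type against 1054.5 CPM in Fmr1-/y (log2 fold change -0.27). RNA of other cells was present as well. The summed level of 4 endothelial markers was 25.8 to 39.6 CPM in wild type against 32.1 to 48.7 CPM in Fmr1-/y, with 3 of the 4 higher at an unadjusted p under 0.05, and 2 of 5 astrocyte markers (698 to 846 against 762 to 1188 CPM) and 2 of 3 choroid plexus markers (6177 to 11579 against 8102 to 17023 CPM) were also higher at that level. Other lists went the other way. Below 0 were 4 of 5 oligodendrocyte markers (1056 to 1589 against 940 to 1459 CPM) and 3 of 3 dentate granule markers (59.1 to 82.3 against 47.5 to 68.1 CPM). None of these had an unadjusted p under 0.05, nor did any CA2, GABAergic, oligodendrocyte precursor or microglial marker. None of the 44 markers in 10 lists was at 0. Whether the cell types behind these markers contribute to the member levels was not tested, and in bulk RNA fewer cells of a type and less RNA per cell cannot be told apart. In addition, 5 libraries stood apart from the others within both genotypes. Wild type 1 and 6 and Fmr1-/y 1, 2 and 5 lay at -11.3 to -6.97 on the first principal component of the 5940 other genes with a mean of at least 32 CPM, which carried 46.9% of their variance, and the other 7 libraries lay at -0.59 to 11.04. These 5 were named after the values were seen, and the results were therefore also computed without them.

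No chromatin gene passed the test between genotypes. In the edgeR fit (quasi-likelihood F test, p adjusted by Benjamini-Hochberg over all genes), 0 of the 94 members had an adjusted p under 0.05 (0.0224% of all genes tested did), and the lowest adjusted p of a member was 0.301, for Arid1b. DESeq2 called 0 members as well, against 0.471% of all genes, with a lowest adjusted p of 0.052 for the same gene. At an unadjusted p under 0.05, edgeR gave 8 members with a lower level in Fmr1-/y, which is 8.51% of the members (3.67% of all genes tested), and 2 with a higher level, 2.13% (4.29% of all genes tested). With library totals in place of TMM scaling these counts were 3 and 3, beside 2.77% and 5.54% of all genes. The 8 lower genes were Arid1b, Dnmt3b, Crebbp, Kmt2e, Chd5, Arid5b, Ep300 and Chd3, and the 2 higher genes were the deacetylases Hdac10 and Hdac8.

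The members as a whole lay slightly below 0. The log2 fold change was below 0 in 64 of 94 members, or 68.1% (48.6% of all genes tested), with a median of -0.055 over the members and 0.0042 over all genes. With library totals 58 members were below 0 and the medians were -0.031 and 0.029. The fold changes were small. Among the 86 members with a mean of at least 5 CPM, the lowest log2 fold change was -0.37 and the highest 0.36. Lower values were fitted only in members under that level, as in Dnmt3l (-1.85, standard error, SE, 1.04, 57 reads in all libraries together) and Arid3c (-1.03, SE 1.21). In 1 member, Arid1b, all Fmr1-/y libraries were below all wild type libraries (0.41% of all genes tested), and in 1 member, Hdac10, they were all above (0.213% of all genes tested).

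**Figure D1:**
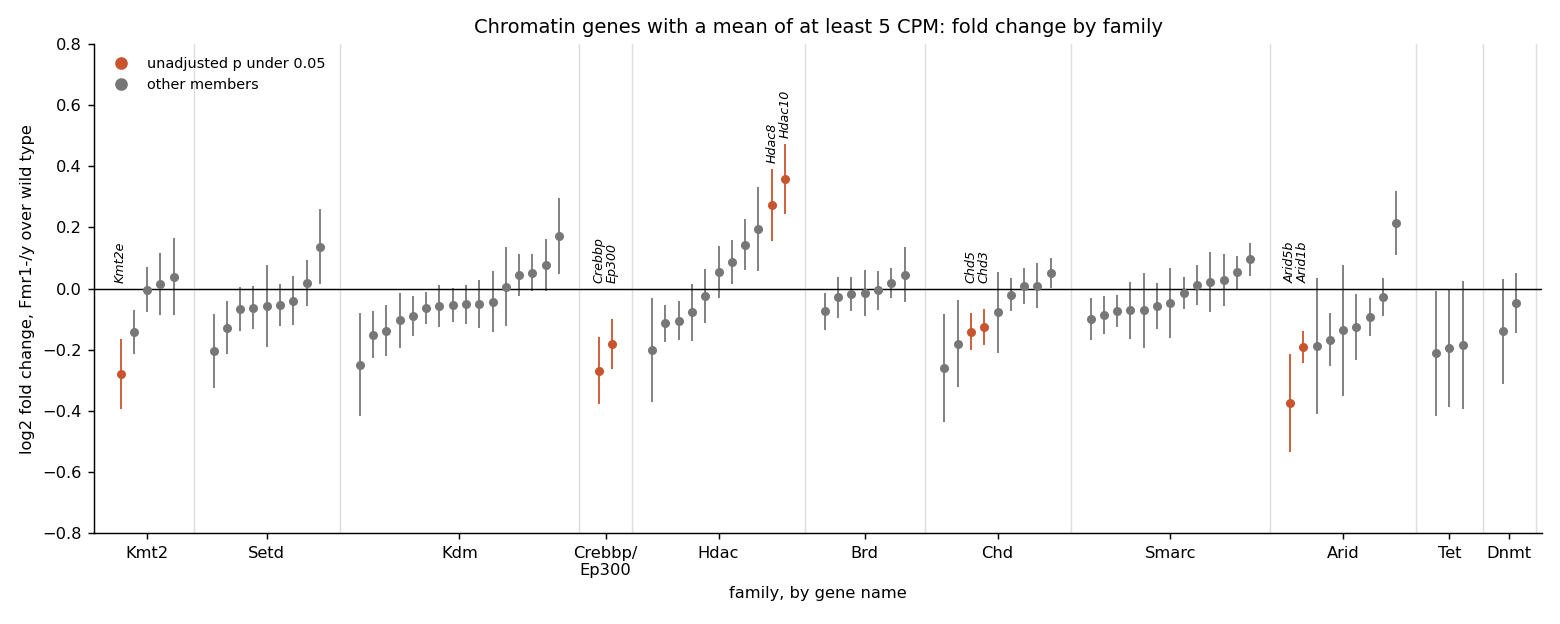
Each point is the log2 fold change of 1 of the 86 members with a mean of at least 5 CPM, grouped by family along the x axis and ordered within it, with the standard error of the edgeR fit as the bar. The 9 named points have an unadjusted p under 0.05, and none of the 86 has an adjusted p under 0.05.

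The counts at unadjusted p moved with single libraries, in both directions. With a library left out, lower members ranged from 2 to 12, beside 2.78% to 4.49% of all genes. Higher members ranged from 1 to 3, beside 3.12% to 5.08% of all genes. The 8 lower members became 4 without wild type 2, wild type 3 or Fmr1-/y 2, beside 2.85% to 3.52% of all genes. They became 2 without wild type 5 or Fmr1-/y 1, beside 2.78% and 3.23% of all genes. The 2 higher members became 1 without wild type 5, Fmr1-/y 2 or Fmr1-/y 5, beside 3.21% to 4.44% of all genes. Without the 5 libraries that stand apart, 7 members were lower and 0 higher, beside 3.43% and 2.67% of all genes in that fit, the median was -0.045, and the groups of 4 and 3 libraries did not overlap in 6 members, or 6.38%, beside 6.64% of all genes.

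The level of each member in wild type was set on a common scale by dividing CPM by the exonic length in kilobases (RPKM), for the 93 members with a length. The median was 9.48 RPKM, and 10.4 RPKM over all genes with a mean of at least 5 CPM. Chd3, an ATP-dependent remodeler of the NuRD repressor complex, had the highest level per length at 144 ± 9.32 RPKM (SD, n = 6). It was followed by the deacetylase Hdac11 at 78.5 ± 5.67 RPKM and the BAF core subunit Smarcc2 at 69.7 ± 2.73 RPKM. Next came Brd9 at 55.2 ± 6.34, Setd3 at 52.2 ± 5.06, Brd2 at 43.4 ± 1.04, Chd4 at 43.2 ± 1.27 and Smarcb1 at 42.3 ± 6.20 RPKM. The libraries of Chd3 (134 to 160 RPKM) did not overlap those of Hdac11 (70.5 to 84.9 RPKM), which in turn overlapped those of Smarcc2 (67.6 to 75.1 RPKM). The libraries of Brd9 and Setd3 overlapped, as did those of Brd2, Chd4 and Smarcb1. At the other end, 5 members were under 1 RPKM. They were Setdb2, Dnmt3b, Kdm4d, Dnmt3l and Arid3c.

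**Figure D2:**
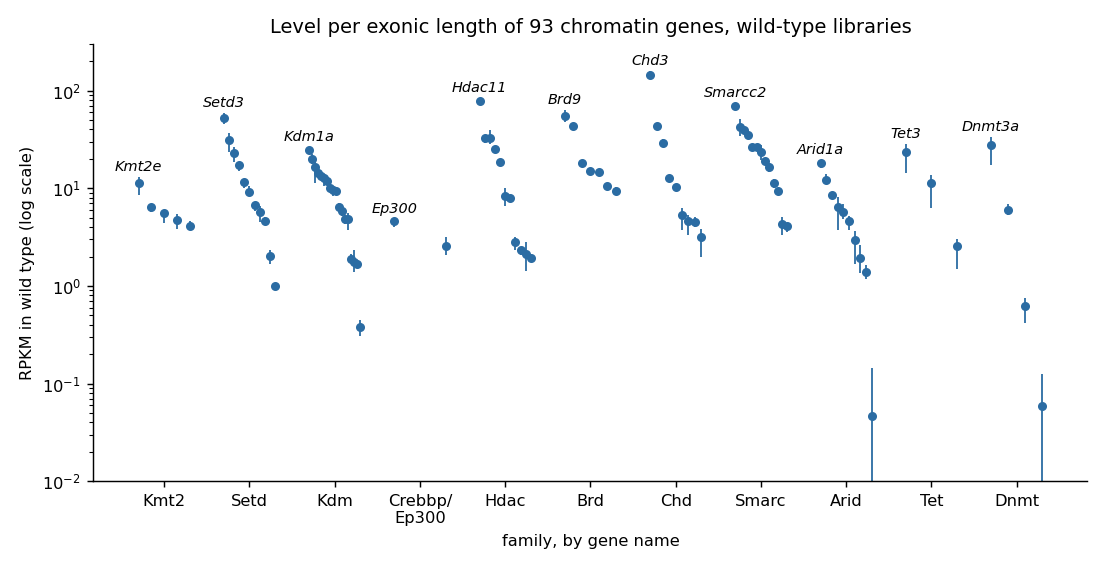
RPKM in wild type on a log scale for the 93 members with an exonic length, by family, with points at the mean of 6 libraries, bars from the lowest to the highest library, and the name of the highest member of each family. Chd3 stands at 144 RPKM, and the bars of Arid3c and Dnmt3l reach 0 and end at the lower edge of the axis.

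Among the Kmt2 and Setd genes, Kmt2e was the member with the lowest unadjusted p. Kmt2e (chromosome 5 from 23433036 to 23504235, GRCm38), whose mutation causes a neurodevelopmental disorder, ranged from 62.9 to 94.7 CPM in wild type with a median of 89.0, and from 57.4 to 81.0 CPM in Fmr1-/y with a median of 65.3. Its log2 fold change was -0.28 (SE 0.11, adjusted p = 0.539). The genotypes overlapped because wild type 1 and 6, at 65.4 and 62.9 CPM, lay in the Fmr1-/y range, and both belong to the 5 libraries that stand apart. The paralogs had smaller fold changes. Kmt2a and Kmt2d, the methyltransferases mutated in Wiedemann-Steiner and Kabuki syndrome, had log2 fold changes of 0.04 (SE 0.12) and -0.0036 (SE 0.07), and Kmt2b and Kmt2c of 0.02 and -0.14. Kmt2d ranged from 114 to 134 CPM in wild type and from 112 to 152 CPM in Fmr1-/y, so that the wild type values lay within the Fmr1-/y values.

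In the Setd family, 7 of 11 members were below 0 and no member had an unadjusted p under 0.05. Setd3, the member with the highest mean CPM over all 12 libraries, was at 220 ± 21.3 CPM in wild type against 210 ± 15.7 CPM in Fmr1-/y (SD, n = 6 each, log2 fold change -0.07, adjusted p = 0.886). In wild type alone Setd7 was higher, at 229 ± 41.0 CPM. Setd5, which is mutated in intellectual disability, was at 118 ± 10.8 and 115 ± 12.9 CPM (log2 fold change -0.04), where the first of a pair of levels is that of wild type. Setdb1, which writes a repressive methyl mark, was at 54.0 ± 3.80 and 54.7 ± 5.50 CPM (log2 fold change 0.02). These differences were smaller than the standard deviations between libraries.

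The lysine demethylases formed the largest family, and none of the 18 had an unadjusted p under 0.05, with 12 below 0. Kdm5b, the highest of them by mean CPM over all libraries, was at 117 ± 10.9 CPM in wild type against 109 ± 15.4 CPM in Fmr1-/y (log2 fold change -0.10, SE 0.09). The X-linked Kdm5c, mutated in a form of X-linked intellectual disability, was at 96.5 ± 7.94 and 99.5 ± 7.18 CPM (log2 fold change 0.04, SE 0.07). Both genes remove methyl groups from the same histone lysine. Ratios of paralogs in this report are of CPM per exonic length, and not of CPM. The ratio of Kdm5b to Kdm5c within a library was 0.818 to 0.932 in wild type against 0.716 to 0.854 in Fmr1-/y. These ranges overlapped. The Y-linked paralog Kdm5d (16.1 ± 1.41 and 17.0 ± 1.47 CPM) was read in every library. Per exonic length, Kdm5c exceeded Kdm5d 7.01 to 9.12 times in wild type against 6.25 to 8.33 times in Fmr1-/y. Kdm6a, the X-linked demethylase mutated in Kabuki syndrome, was at 28.7 ± 4.61 and 28.8 ± 5.87 CPM (log2 fold change 0.0068, SE 0.13).

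Both acetyltransferases were lower in Fmr1-/y at unadjusted p. Crebbp (chromosome 16 from 4081334 to 4213957), the CREB-binding protein that is mutated in Rubinstein-Taybi syndrome and needed for long-term memory in mice, ranged from 22.4 to 34.0 CPM in wild type with a median of 28.2, and from 19.7 to 28.9 CPM in Fmr1-/y with a median of 22.3. Its mean in Fmr1-/y was 83.0% of wild type (log2 fold change -0.27, SE 0.11, adjusted p = 0.532). Its paralog Ep300 (chromosome 15 from 81586209 to 81652077) ranged from 38.4 to 46.6 CPM with a median of 45.5 in wild type, and from 34.7 to 45.3 CPM with a median of 38.2 in Fmr1-/y. That is a log2 fold change of -0.18 (SE 0.08, adjusted p = 0.595). The genotypes overlapped in both genes. Fmr1-/y 1, 2 and 5 were the lowest libraries of the 12 for both, while wild type 6 held the lowest wild type value of both. The ratio of Crebbp to Ep300 per exonic length within a library was 0.489 to 0.651 in wild type against 0.456 to 0.588 in Fmr1-/y.

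The histone deacetylases were split, with 5 of 11 below 0 and a median log2 fold change of 0.05 that became -0.03 without the 5 libraries that stand apart. Hdac10 (chromosome 15 from 89123303 to 89128700), known as a polyamine deacetylase, had 5.15 to 6.34 CPM in wild type with a median of 5.94, and 6.35 to 9.36 CPM in Fmr1-/y with a median of 7.08. Its mean in Fmr1-/y was 128% of wild type (log2 fold change 0.36, SE 0.11, adjusted p = 0.378). The groups did not overlap, but they touched. The highest wild type library (replicate 1, 6.339 CPM) and the lowest Fmr1-/y library (replicate 6, 6.351 CPM) were nearly equal, and the groups overlapped with DESeq2's size factors or with library totals. Without wild type 2, they also overlapped.

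Hdac8 (X chromosome from 102284638 to 102505381), which deacetylates cohesin, ranged from 12.9 to 19.5 CPM in wild type with a median of 16.0, and from 14.3 to 22.4 CPM in Fmr1-/y with a median of 20.1. Its log2 fold change was 0.27 (SE 0.12, adjusted p = 0.561). Fmr1-/y 1, 2 and 5 were the 3 highest libraries, and the other Fmr1-/y libraries lay inside the wild type range. Without the 5 libraries that stand apart, the log2 fold change of Hdac8 was 0.09, and that of Hdac10 was 0.20. Hdac7 was high in a single library, Fmr1-/y 5, at 16.2 CPM, while the other 11 libraries had 8.32 to 11.6 CPM. The mean log2 level of the endothelial markers was also highest in that library, at 3.58 against 2.67 to 3.52 in the others. Fmr1-/y 1 and 2 were close, at 3.47 and 3.52, with 10.2 and 10.4 CPM of Hdac7. The part of endothelial RNA in the Hdac7 level was not tested.

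The other named deacetylases, some of them known for a part in memory, had no unadjusted p under 0.05. Hdac2, which restrains memory in hippocampal neurons, was at 137 ± 17.7 CPM in wild type against 135 ± 15.2 CPM in Fmr1-/y (log2 fold change -0.02, SE 0.09). Hdac3, the catalytic subunit of the NCoR complex, was at 66.6 ± 5.86 and 70.8 ± 5.73 CPM (log2 fold change 0.09, SE 0.07). Hdac1 was at 37.7 ± 2.198 and 41.6 ± 5.48 CPM (log2 fold change 0.14, adjusted p = 0.724). Its ratio to Hdac2 per exonic length was 0.465 to 0.641 in wild type against 0.545 to 0.773 in Fmr1-/y. Hdac4, which shuttles between cytoplasm and nucleus with neuronal activity, was at 17.2 ± 4.56 and 14.97 ± 3.36 CPM (log2 fold change -0.20, SE 0.17). Hdac11, the most abundant deacetylase per length, was at 208 ± 15.1 and 194 ± 14.2 CPM (log2 fold change -0.10, SE 0.06, adjusted p = 0.743).

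Among the bromodomain proteins no member had an unadjusted p under 0.05, and the 7 log2 fold changes lay between -0.07 and 0.04. Brd2, a reader of acetylated histones of the BET family, was the steadiest of all members, with 209 to 224 CPM in wild type against 209 to 230 CPM in Fmr1-/y, a coefficient of variation within genotypes of 3.25%. The median of the family was -0.01 and turned to 0.01 with library totals.

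The Chd remodelers held 2 of the 8 lower genes, both subunits of NuRD. Chd5 (chromosome 4 from 152338646 to 152390194), the form found mainly in neurons, ranged from 250 to 304 CPM in wild type with a median of 277, and from 238 to 278 CPM in Fmr1-/y with a median of 246 (log2 fold change -0.14, SE 0.06, adjusted p = 0.561). Chd3 (chromosome 11 from 69343273 to 69369499) ranged from 973 to 1159 CPM with a median of 1029 in wild type, and from 899 to 1017 CPM with a median of 949 in Fmr1-/y (log2 fold change -0.13, SE 0.06, adjusted p = 0.614). Wild type 5 was the highest library for both genes, and the genotypes overlapped. The third NuRD remodeler, Chd4, was at 290 ± 8.51 CPM in wild type against 301 ± 12.2 CPM in Fmr1-/y (log2 fold change 0.05, SE 0.05). Per exonic length and within a library, Chd4 exceeded Chd5 1.39 to 1.58 times in wild type against 1.56 to 1.78 times in Fmr1-/y. The means of this ratio were 1.48 ± 0.07 and 1.69 ± 0.10 (SD, n = 6 each), and only the edges of both ranges met. The ratio was not tested.

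Chd genes known from developmental disorders had no unadjusted p under 0.05. Chd8, a common target of mutation in autism, was at 107 ± 5.36 CPM in wild type against 106 ± 4.70 CPM in Fmr1-/y (log2 fold change -0.02, SE 0.05). Chd2, mutated in epilepsy, was at 93.4 ± 5.61 and 94.0 ± 4.41 CPM (log2 fold change 0.0086, SE 0.06). Chd7, the gene of CHARGE syndrome, was at 32.8 ± 7.43 and 27.4 ± 7.89 CPM (log2 fold change -0.26, SE 0.18), with a spread of 1.98 times between its lowest and highest library.

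The Smarc genes code for the ATPases and core subunits of SWI/SNF and related complexes, and no member of the 14 had an unadjusted p under 0.05. The alternative ATPases Smarca2 and Smarca4 were at 258 ± 16.5 and 168 ± 4.35 CPM in wild type against 263 ± 38.98 and 166 ± 9.62 CPM in Fmr1-/y. Their ratio per exonic length within a library was 1.27 to 1.504 in wild type against 1.06 to 1.63 in Fmr1-/y. The Fmr1-/y range thus enclosed that of wild type. The core subunits Smarcb1, Smarce1 and Smarcc2 had log2 fold changes of 0.02, 0.05 and -0.07 with standard errors of 0.10, 0.05 and 0.05. Smarcc2 was at 358 ± 14.0 CPM in wild type against 341 ± 16.4 CPM in Fmr1-/y, and the ratio of its paralog Smarcc1 to it was 0.240 ± 0.0195 and 0.236 ± 0.0179. Smarcd1, a subunit that bridges the complex to transcription factors, had the smallest p of the family (129 ± 5.64 and 138 ± 6.91 CPM, log2 fold change 0.10, adjusted p = 0.709).

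The Arid family contained the member nearest to the threshold. Arid1b (chromosome 17 from 4994297 to 5347656), a subunit that defines the BAF complex and whose loss of 1 allele causes Coffin-Siris syndrome, was at 103, 95.0, 95.1, 96.2, 104 and 95.3 CPM in wild type 1 to 6. In Fmr1-/y 1 to 6 it was at 81.9, 86.3, 89.6, 82.6, 84.7 and 90.4 CPM. All Fmr1-/y libraries lay below all wild type libraries, including those that stand apart, and the mean in Fmr1-/y was 87.6% of wild type (98.1 ± 4.17 against 85.9 ± 3.55 CPM, SD, n = 6 each). The log2 fold change was -0.19 (SE 0.05, adjusted p = 0.301), which ranked 134 among all genes tested by p. Over the alternatives the log2 fold change stayed between -0.21 and -0.15 and the adjusted p between 0.052 and 0.796, never past the threshold. The genotypes overlapped when CPM was scaled by library totals alone.

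Its paralog Arid1a, which takes the same place in the complex, was at 154 ± 10.2 CPM in wild type against 144 ± 9.27 CPM in Fmr1-/y (log2 fold change -0.09, SE 0.06, adjusted p = 0.774). The ratio of Arid1a to Arid1b per exonic length was 1.80 to 2.27 in wild type against 2.11 to 2.41 in Fmr1-/y. Arid2, the subunit of the PBAF form, was at 40.6 ± 5.28 and 37.2 ± 5.85 CPM (log2 fold change -0.13). Arid5b (chromosome 10 from 68092523 to 68279355), a DNA-binding partner of a histone demethylase, ranged from 10.5 to 20.1 CPM in wild type and from 7.61 to 15.8 CPM in Fmr1-/y, with a log2 fold change of -0.37 (SE 0.16, adjusted p = 0.573). Wild type 5 was its highest library and Fmr1-/y 2 its lowest. Arid5a, also known as an RNA-binding protein, was the exception of the family, at 8.34 ± 1.11 and 9.66 ± 0.833 CPM (log2 fold change 0.21, adjusted p = 0.64), and 9 of the 10 Arid genes were below 0.

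**Figure D3:**
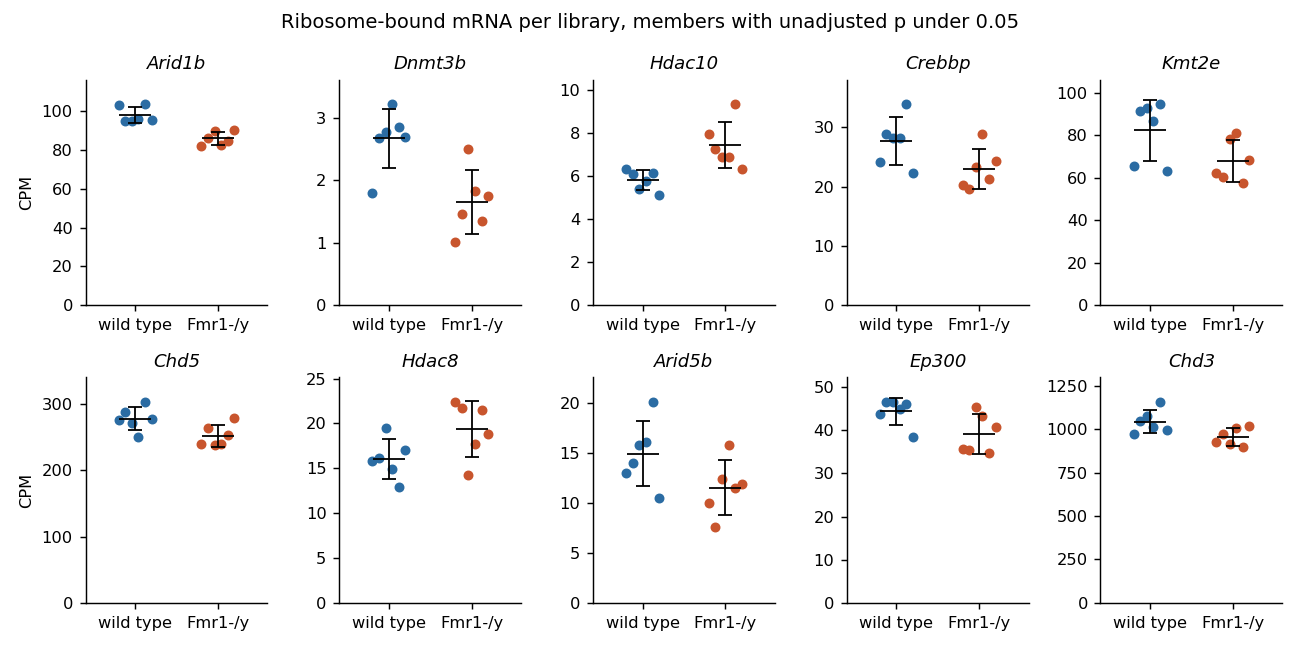
CPM of the 10 members with an unadjusted p under 0.05, 1 point per library, with 6 wild type libraries in blue and 6 Fmr1-/y libraries in red, and the mean and SD in black, on y axes that start at 0. The groups are apart in Arid1b and, narrowly, in Hdac10, and overlap in the other 8.

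The 4 Dnmt genes and the 3 Tet genes were all below 0 in Fmr1-/y under TMM scaling, DESeq2's size factors and library totals. Under TMM scaling 48.6% of all genes tested were below 0, and 67.1% of those of at least 5000 bp with a mean of at least 5 CPM. Of the Dnmt genes, Dnmt3l rested on 57 reads in all libraries together. With 1 surrogate variable in the fit, Dnmt3a was at 0.01, and Dnmt1 reached 0.01 with a library left out. Dnmt3b (chromosome 2 from 153649411 to 153687730), a de novo methyltransferase, had the second smallest p of the members. It was a low gene, at 1.80 to 3.23 CPM in wild type with a median of 2.73, and 1.01 to 2.504 CPM in Fmr1-/y with a median of 1.61, and rested on 1198 reads in all libraries together. Its log2 fold change was -0.70 (SE 0.21, adjusted p = 0.360). The genotypes overlapped through wild type 1, at 1.80 CPM, and Fmr1-/y 3, at 2.504 CPM. Dnmt1, which maintains methylation, was at 37.4 ± 3.93 and 36.2 ± 5.33 CPM (log2 fold change -0.05).

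Dnmt3a, the main de novo methyltransferase of neurons, and the 3 Tet dioxygenases differed far more between libraries than between genotypes. Dnmt3a (chromosome 12 from 3801559 to 3914443) ranged from 171 to 330 CPM in wild type with a median of 310, and from 184 to 339 CPM in Fmr1-/y with a median of 241 (log2 fold change -0.14, SE 0.17, adjusted p = 0.915). Tet3 (chromosome 6 from 83362373 to 83457208) ranged from 167 to 335 CPM in wild type with a median of 315, and from 160 to 326 CPM in Fmr1-/y with a median of 241 (log2 fold change -0.19, SE 0.19, adjusted p = 0.878). Tet2 (chromosome 3 from 133463677 to 133545136) ranged from 57.7 to 127 CPM with a median of 115 and from 53.6 to 129 CPM with a median of 86.7 (log2 fold change -0.18, SE 0.21, adjusted p = 0.900). Tet1 (chromosome 10 from 62804570 to 62887469) ranged from 21.2 to 43.7 CPM with a median of 41.8 and from 20.3 to 45.7 CPM with a median of 30.0 (log2 fold change -0.21, SE 0.20, adjusted p = 0.873). The genotypes covered nearly the same range in each gene, and only the medians differed.

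The low values came from the same libraries in all 4 genes. Wild type 1 and 6 and Fmr1-/y 1, 2 and 5, the 5 libraries that stand apart on other genes, had 53.6 to 83.0 CPM of Tet2, and the other 7 libraries had 102 to 129 CPM. For Tet3 the ranges were 160 to 211 and 273 to 335 CPM, for Tet1 20.3 to 28.1 and 35.1 to 45.7 CPM, and for Dnmt3a 171 to 223 and 275 to 339 CPM. The 2 sets of libraries were thus apart within both genotypes, while the ratio of Tet1 to Tet3 stayed at 0.107 ± 0.0046 in wild type against 0.106 ± 0.0060 in Fmr1-/y. Of these 5 libraries, 3 were Fmr1-/y and 2 wild type. Without the 5 libraries the log2 fold changes were -0.02 for Tet2, -0.07 for Tet1, -0.07 for Tet3 and -0.03 for Dnmt3a, and with the principal component score as a covariate -0.04, -0.07, -0.05 and -0.0083.

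The same order of libraries was found in many members. Among the 86 members with a mean of at least 5 CPM, 26 had exactly these 5 libraries as their lowest, or 30.2%, beside 8.88% of the 11281 genes at that level. No member had them as its highest 5, as 442 of the 11281 genes did. The genes were not matched to the members, which are longer (median 6429.5 against 3576 bp) and of higher level (median 64.8 against 35.5 CPM). What part length and level play in these shares was not tested. Besides the Tet genes and Dnmt3a, the 26 included Arid3a, Arid3b, Chd7, the demethylase Kdm6b and Hdac4, whose highest library exceeded the lowest 1.96 to 2.57 times, and Kmt2e, Kdm6a, Kdm5b, Kdm5c, Setd5, Arid1a and Arid2 with smaller spreads. Other members did not vary in this way. The coefficients of variation within genotypes were 3.25% to 4.19% for Brd2, Chd4, Smarce1, Kdm2a, Smarca4 and Arid1b, and 24.6% to 30.9% for Kdm6b, Dnmt3a, Chd7, the 3 Tet genes, Arid3a and Arid3b. The 4 deepest of the 12 libraries, with 50698125 to 65565479 reads, were among the 5, while wild type 6 had 41523892 reads and the other 7 libraries 39400980 to 50029063. The part of depth was not tested. What sets the 5 libraries apart was not tested, and since the labels name no extraction or sequencing batch, no within-batch value can be given.

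**Figure D4:**
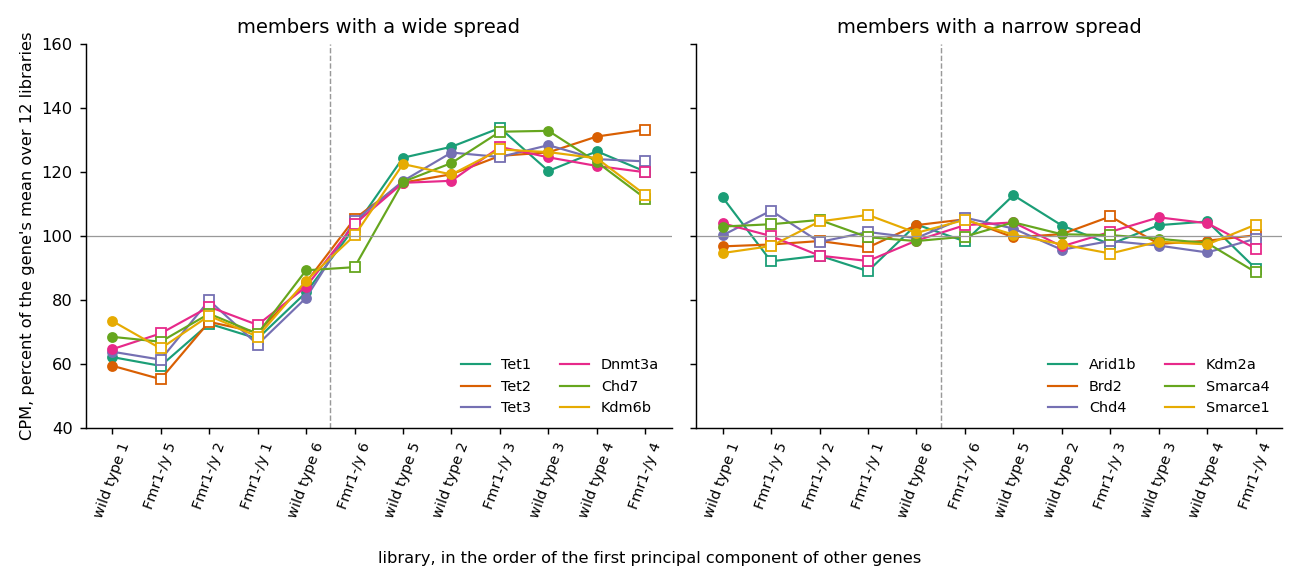
Level of 6 members with a wide spread (left) and 6 with a narrow spread (right) in each library, as a percent of the gene's mean over the 12 libraries, with libraries ordered by the first principal component of other genes, filled circles for wild type and open squares for Fmr1-/y. The 5 libraries left of the dashed line are below 100% for all 6 genes on the left, while the genes on the right vary less and in no such order.

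The promoters of Tet2 and Dnmt3a are shown because the 2 genes, with opposite roles on methylated DNA, moved together between libraries, and because neither window touches an exon annotated in GENCODE vM21. Each is the 250 bases before the RefSeq transcription start (GRCm38.p6, the first listed for Dnmt3a, which has several). Both lie inside the gene coordinates given above, which begin farther upstream. They are printed 5′ to 3′ on the strand of the gene, with capitals on GGGCGG or its complement CCGCCC, the GC box bound by Sp1-type factors. The Tet2 window lies at chr3:133544391-133544640 on the minus strand and the Dnmt3a window at chr12:3806730-3806979 on the plus strand.
Tet2: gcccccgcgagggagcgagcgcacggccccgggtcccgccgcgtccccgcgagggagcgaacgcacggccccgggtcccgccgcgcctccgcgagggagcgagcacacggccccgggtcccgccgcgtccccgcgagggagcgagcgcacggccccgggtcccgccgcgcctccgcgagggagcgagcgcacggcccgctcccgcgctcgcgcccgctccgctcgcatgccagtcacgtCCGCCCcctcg
Dnmt3a: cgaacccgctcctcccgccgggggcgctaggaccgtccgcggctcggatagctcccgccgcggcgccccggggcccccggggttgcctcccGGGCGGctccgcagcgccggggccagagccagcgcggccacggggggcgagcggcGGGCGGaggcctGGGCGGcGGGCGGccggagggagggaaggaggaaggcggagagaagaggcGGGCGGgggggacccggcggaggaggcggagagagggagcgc
Both windows are rich in CpG, with 51 CpG in Tet2 and 38 in Dnmt3a, and hold 1 and 5 GC boxes. Over the 72 members with a promoter in the RefSeq table, taking the first start listed for a gene, the median was 20 CpG in 250 bases, beside 6 over 27025 genes. A GC box on either strand was found in 51 of the 72, or 70.8%, beside 32.9% of all promoters. The promoters of all genes were taken without the read filter that the members passed. What part this plays in the CpG and GC box values was not tested. The full cyclic AMP response element TGACGTCA was in 0 of the 72 and in 1.62% of all promoters, and CCAAT on either strand was in 34.7% of the members and 34.5% of all promoters. The letters describe the windows alone, and no measurement here bears on the binding of a factor.

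The members are long genes, and the fold changes in these libraries varied with exonic length across all genes. The median exonic length was 6058 bp over the members and 3192 bp over all genes tested. Among genes with a mean of at least 5 CPM and an exonic length of at least 5000 bp, 48 of 59 members were below 0, or 81.4%, beside 67.1% of the 3165 genes of that length. Under 5000 bp, 12 of 27 members were below 0, or 44.4%, beside 42.5% of 7984 genes. The medians were -0.073 in members and -0.044 in all genes for long transcripts, and 0.018 in both for shorter ones. Of the 8 lower members, 7 are longer than 5000 bp, and the exception is Dnmt3b at 4326 bp. These 7 are 11.9% of the 59 long members, while 8.88% of the 3165 long genes were lower at the same unadjusted p. The higher members Hdac10 and Hdac8 measure 2506 and 1936 bp. In the range of 7500 to 10000 bp the medians were -0.10 for 19 members and -0.05 for 741 genes, and from 10000 bp on -0.11 for 12 members and -0.07 for 419 genes. The member medians lay below those of all genes in each length range from 3500 bp upwards, by at most 0.05. In the shorter ranges they lay above. They were 0.08 against 0.045 under 2000 bp (4 members) and 0.053 against 0.016 from 2000 to 3500 bp (11 members). Without the 5 libraries that stand apart, 44 of the 59 long members were below 0, or 74.6%, beside 62.7% of the long genes, and with library totals 72.9% beside 57.9%. How far length accounts for the values of the members was not tested.

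**Figure D5:**
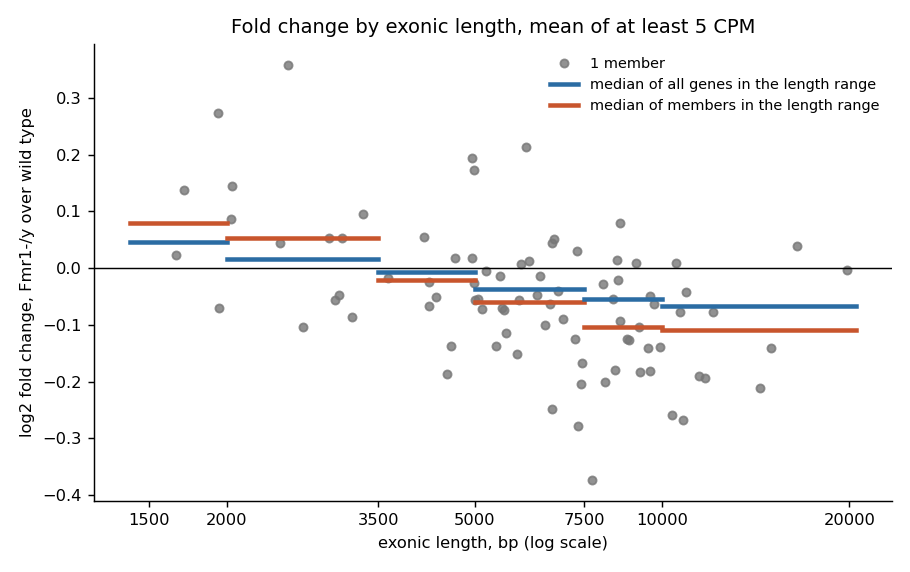
Log2 fold change of the 86 members with a mean of at least 5 CPM against exonic length on a log scale, with horizontal lines at the medians of members (red) and of all genes (blue) in 6 length ranges. Both medians fall from above 0 under 2000 bp to below 0 from 5000 bp on, and 48 of 59 members of at least 5000 bp lie below 0.

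Chromatin genes that the name rule leaves out were counted in the same fit. Of 102 genes listed from Polycomb, NuRD and corepressor complexes, sirtuins, other acetyltransferases and methyltransferases, COMPASS, BAF, INO80 and ISWI, 101 were measured, and 0 had an adjusted p under 0.05 in edgeR or DESeq2. Below 0 were 73 of the 101, or 72.3% (48.6% of all genes tested), with a median of -0.030. At an unadjusted p under 0.05, 8 were lower, or 7.92% (3.67% of all genes tested), and 1 was higher, or 0.99% (4.29% of all genes tested). Among the lower genes were the NuRD and corepressor subunits Gatad2b (log2 fold change -0.37), Ncor1 (-0.14) and Mta3 (-0.16), the methyltransferases Ash1l (-0.16) and Ehmt2 (-0.16), and the BAF-associated Bcl11b (-0.22) and Bcl11a (-0.18). The higher gene was the sirtuin Sirt7 (14.7 and 17.7 CPM, log2 fold change 0.27, adjusted p = 0.565).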

How the data were processed

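Libraries of HA-Rpl22-bound RNA were made with a stranded kit. Per the submitters' processing notes, the tools were bcl2fastq 2.17, TopHat2 2.1.1, Bowtie2 2.2.8 and HTSeq 0.6.1p1 with the mm10 build, and the authors deposited raw read counts per gene. From these counts, edgeR 4.0.16 (R 4.3.3) was run over all 17823 genes with at least 15 reads in total, with TMM scaling, the quasi-likelihood test, no covariate and Benjamini-Hochberg adjustment (threshold 0.05). Every p in the report is from this fit unless DESeq2 (1.42.0) is named. CPM are counts scaled by the TMM-adjusted library size, shown with the SD over 6 libraries. Standard errors of log2 fold changes were taken from the fold change and its F value. Exonic length is the union of exons in the GENCODE vM21 basic annotation, matched by Entrez identifier. Gene coordinates were taken from a RefSeq gene table, matched by the same identifier.

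Members and lists were chosen with earlier results of these data known. Named genes are the 5 lower and 5 higher members with the smallest p and the highest member of each family by mean CPM. Members whose groups do not overlap and a list of genes known from neurodevelopmental disorders or memory were also named. A further 11 paralog pairs are given as ratios of CPM per exonic length within a library. Arid5b was named because only 8 members were lower at unadjusted p, and Hdac7, Kdm6b and other members of wide or narrow spread, as well as the other chromatin genes with values, were named after their values were seen. Some genes that these rules name are not reported here. Alternatives were other scalings, filters and tests (limma 3.58.1, sva 3.50.0), a replicate block, each library left out, and 2 added after seeing the data. Scripts were tested on simulated counts. The replicate numbers do not pair the libraries, with a mean correlation of same-numbered deviations of 0.025 (-0.081 to 0.09) over all genes and 0.038 (-0.511 to 0.694) over the members, and 3 of the 6 pairs over 0.1 in the members and in genes with a mean log2 CPM over 5 (mean 0.155, -0.443 to 0.599).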

Additional observations from a re-analysis of the deposited data

Results flagged for a closer look

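In each genotype, the lowest and highest library of 42 named members was compared with the nearest of the others as a share of the whole range, against Dixon's 95% critical value for 6 libraries. This flagged 3 of 84 groups, and chance flags about 1 in 20 groups. Wild type 6 was low in Ep300, at 38.4 CPM beside 43.8 to 46.6 CPM in the other wild type libraries, a gap of 0.659 of the range. Fmr1-/y 4 was low in Smarca4, at 148 CPM beside 166 to 175 CPM, a gap of 0.67. Wild type 5 was high in Smarcc2, at 386 CPM beside 347 to 357 CPM, a gap of 0.755.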

How the results depend on the processing

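No alternative (edgeR variants, DESeq2 or limma) put a member past the threshold, over 22 alternatives and 42 named members. The median of the members stayed below 0 throughout, from -0.0735 to -0.0442 with a library left out. In the counts that follow, the shares in brackets are of all genes in the same fit. The count of lower members at unadjusted p was 8 (3.67%), and 3 with library totals (2.77%). It was 13 with 1 surrogate variable (5.6%), 15 with the principal component score (5.76%), and 2 to 12 with a library left out (2.78% to 4.49%). The count of higher members was 2 (4.29%), and 0 without the 5 libraries that stand apart (2.67%). With a library left out it was 1 to 3 (3.12% to 5.08%). The count without overlap was 2 (0.623%), and 1 with DESeq2's size factors in edgeR or in DESeq2 itself (0.64%). It was 0 with library totals (0.544%), 6 without the 5 libraries (6.64%), and 1 to 3 with a library left out (0.749% to 1.29%). The cause of these changes was not tested, and the groups are also smaller when libraries are left out. With the replicate block, which the data do not bear out as a pairing, the counts were 0, 11 and 2 and the median -0.0568. The last 2 counts, lower and higher, stood beside 4.26% and 4.14% of all genes. In 52 of 924 comparisons a named member changed sign, in 15 members whose log2 fold change was at most 0.14. Calls over all genes at an adjusted p under 0.05 were 4 in edgeR and 84 in DESeq2, and ranged from 2 with a library left out to 27 with the principal component score among the other alternatives. Members with few reads, such as Dnmt3l and Arid3c, allow no statement at this depth. Replicates are pools, and p-values measure the spread between them.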

Other observations

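The genes outside the members that weighed most on the first principal component were chosen by their loading, after the values were seen. Among them were Tnrc6a, Tnrc6b, Tnrc6c and Ago2, which act in microRNA silencing. Other genes of that pathway were not counted. In the 5 libraries that stand apart, Tnrc6a was at 264 to 365 CPM beside 473 to 677 CPM in the other 7, Tnrc6b at 393 to 475 beside 640 to 900 CPM, Tnrc6c at 236 to 334 beside 380 to 614 CPM, and Ago2 at 51.6 to 59.1 beside 77.4 to 124 CPM. The transcription factor genes Bach2 (23.6 to 37.9 beside 48.9 to 70.1 CPM) and Pou2f1 (56.4 to 82.3 beside 107 to 148 CPM) did so too. The spectrin genes Sptb and Sptan1 had loadings of the opposite sign, with ranges that overlapped. Sptb was at 532 to 1034 CPM in the 5 libraries and at 155 to 572 CPM in the others, and Sptan1 was at 660 to 1501 beside 425 to 903 CPM. None of these genes had an adjusted p under 0.05 between genotypes in edgeR, with values of 0.611 to 0.948.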
